A study of Mus musculus with 8 samples.

Results

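The MYC, MAX and MXD network is a set of transcription factors that compete for a shared DNA-binding partner. It was taken here as 9 genes chosen by symbol, Myc, Max, Mxd1, Mxd3, Mxd4, Mxi1, Mnt, Mga and Mlx. All 9 were found among the 23356 genes of the table, and all 9 were among the 11397 genes with an estimate of accepted status and at least 1 FPKM (fragment counts divided by transcript length and by library size) in at least 1 group.

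RNA was sequenced from bone marrow-derived dendritic cells (BMDCs) to ask how DCs respond to microtubule loss and which part of that response needs GEF-H1, a RhoA exchange factor that microtubules hold inactive and that Arhgef2 encodes. The 4 groups of 2 libraries each were untreated WT DCs, WT DCs given the microtubule destabilizer ansamitocin-P3 at 100 nM for 5 h, untreated GEF-H1-/- DCs, and GEF-H1-/- DCs given the same treatment, all of C57BL/6 background. All cells came from marrow cultured with GM-CSF and IL-4, so they model cytokine-grown DCs and are mixed cultures, and the loss of GEF-H1 was present throughout their differentiation. The authors' table held 1 pooled FPKM per gene and group with the 95% interval from Cuffdiff, which is given here in parentheses after each level. No value per library was analysed, so no difference below has a replicate check, no test between groups was run on these pooled values, and the depth reached by each library was not analysed here.

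MYC drives ribosome production, metabolism and cell division, and binds the E-box CACGTG only as a dimer with MAX. The MXD proteins (including MXI1, also called MXD2) and MNT take the same partner, bind the same E-box and recruit SIN3 and histone deacetylases to lower transcription. MYC is typically high in dividing progenitors, while several MXD proteins appear as cells leave the cycle and differentiate, in the myeloid lineage among others.

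Arhgef2 checked the genotype labels. It was at 42.3 FPKM (34.5 to 49.98) in untreated WT DCs, 45.9 (36.9 to 54.9) in treated WT DCs, 4.59 (3.54 to 5.63) in untreated GEF-H1-/- cells and 4.16 (3.22 to 5.11) in treated GEF-H1-/- cells. The WT and GEF-H1-/- intervals were far apart, in the direction of the labels, and without treatment the transcript fell by 89.1% and was not at 0.

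All 10 listed DC markers were at 1 FPKM or more in every group. Cd74, the invariant chain of MHC class II, was the most abundant of them, at 3676 FPKM in untreated WT and 3073 FPKM in untreated GEF-H1-/- cells, while Flt3 was low, at 2.10 FPKM in untreated WT DCs. Markers of other myeloid cells differed with genotype, and those given singly were picked after their values were seen. The 6 neutrophil markers found, of 7 listed, summed to 32023 FPKM in untreated WT, 37883 in treated WT, 21687 in untreated GEF-H1-/- and 22111 in treated GEF-H1-/- cells. Most of this was S100a8, at 19401 FPKM in untreated WT and 10856 in untreated GEF-H1-/- cells, whose Cuffdiff intervals lay below its FPKM in both groups. Camp, a granule peptide, was at 189 FPKM (128 to 206) in untreated WT and 15.0 (9.61 to 18.0) in untreated GEF-H1-/- cells, whereas Mpo, a gene of early granulocyte and monocyte precursors, went the other way, from 26.4 (21.3 to 31.4) to 63.1 (51.0 to 75.2).

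The 4 mast cell and basophil markers summed to 107 FPKM in untreated WT, 109 in treated WT, 198 in untreated GEF-H1-/- and 190 in treated GEF-H1-/- cells, with Mcpt8 the most abundant. The 6 macrophage markers summed to 144, 95.02, 179 and 153 FPKM in the same order, with Csf1r the most abundant, and among them C1qa was at 4.22 FPKM (2.95 to 5.45) in untreated WT and 29.2 (22.2 to 36.1) in untreated GEF-H1-/- cells. The log2 ratios of GEF-H1-/- to WT without treatment were 0.10 for Csf1r, 0.05 for Fcgr1, 0.04 for Emr1 and -0.22 for Mertk, with overlapping intervals for these 4. B cell, T and NK cell and erythroid markers were low, with sums of at most 6.43, 16.9 and 2.15 FPKM, and no listed marker found was at 0 in any group. Fewer cells of a type and less RNA per cell cannot be told apart in bulk RNA, and the part that these other cells had in the levels below was not tested.

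In untreated WT DCs the network genes ran from Myc at 61.7 FPKM to Mga at 7.18 FPKM, around the median of 12.3 FPKM over the 11397 genes. The order was Myc, Max, Mxd4, Mlx, Mxd1, Mxi1, Mxd3, Mnt and Mga, and the only neighbours whose intervals did not overlap were Mxd1 and Mxi1. In treated WT DCs Myc, at 49.5 FPKM, Max, Mxd4 and Mxd1, at 37.2 FPKM, followed each other with overlapping intervals. In both GEF-H1-/- groups Myc stood above Max, and Max above Mlx, with intervals that did not overlap.

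**Figure D1:**
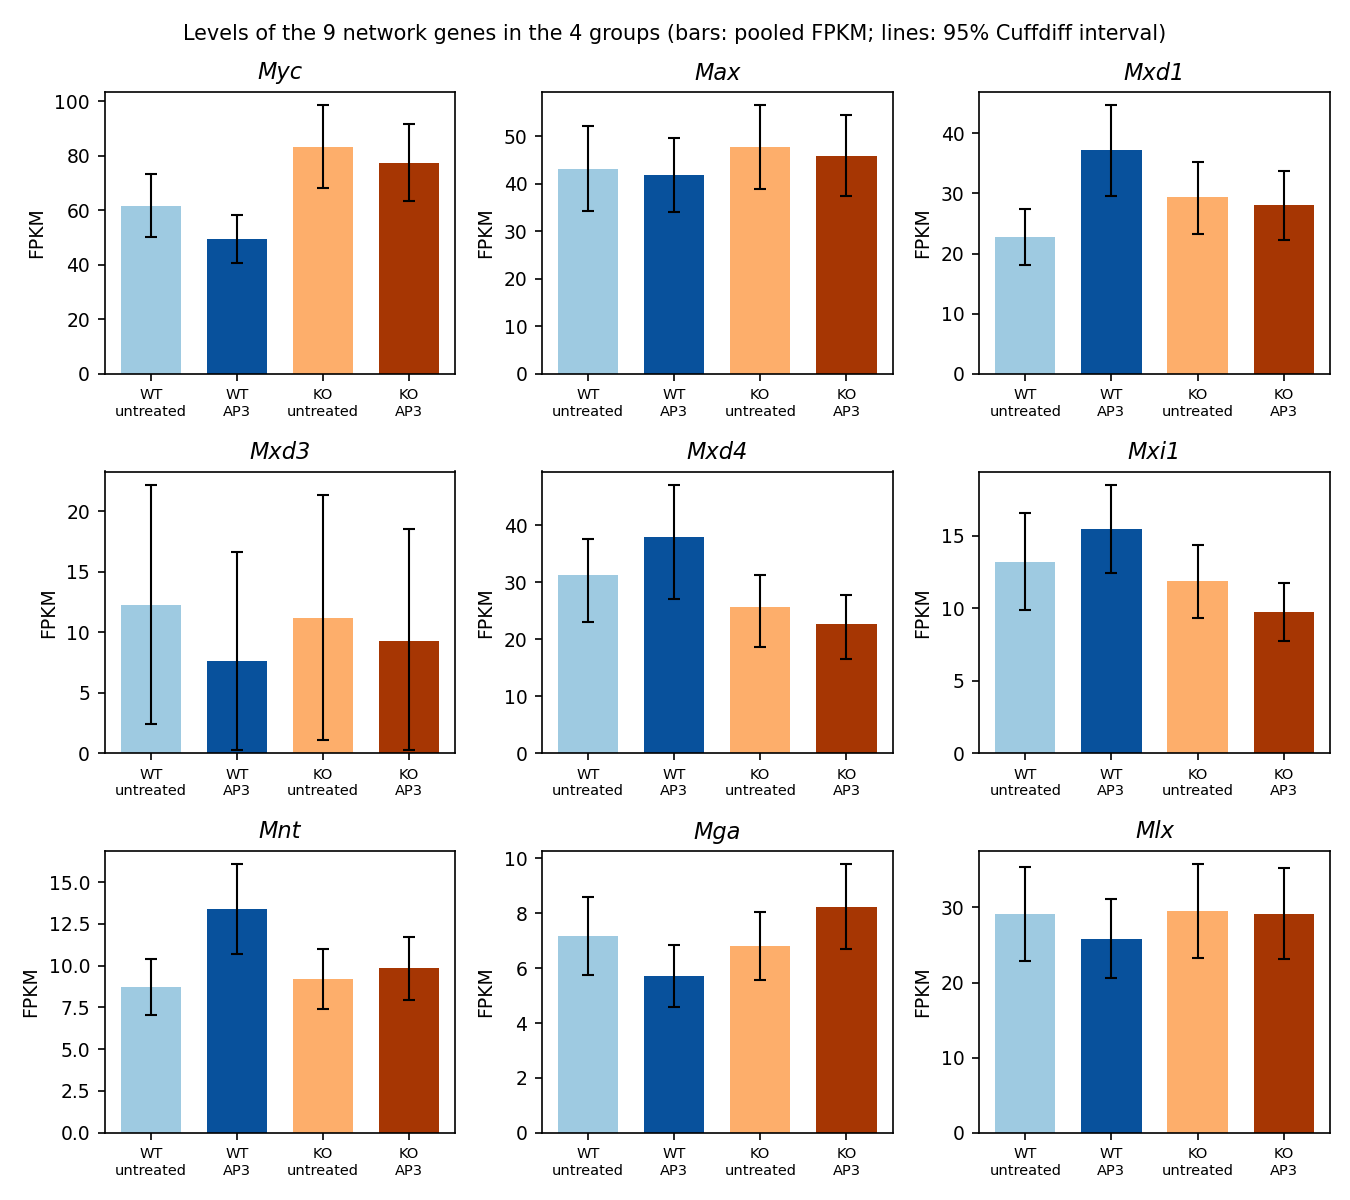
Level of each network gene (y axis, FPKM) in WT and GEF-H1-/- (KO) DCs, untreated or given ansamitocin-P3 (AP3). Bars are the authors' pooled FPKM of 2 libraries and lines the 95% Cuffdiff interval. Mxd1 and Mnt stood highest in treated WT DCs, at 37.2 and 13.4 FPKM, and Myc lowest there, at 49.5 FPKM.

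No network gene passed a log2 ratio of 1 in size, on the scale of log2(FPKM + 1), in any comparison. Of all 11397 genes, 4.94% passed it between treated and untreated WT DCs, 1.08% between treated and untreated GEF-H1-/- cells, 1.88% between the genotypes without treatment and 4.06% between the genotypes with treatment. By the second rule, that the Cuffdiff intervals of both groups do not overlap, 2 of 9 network genes differed with treatment in WT DCs, against 16.8% of all genes, and 0 of 9 in GEF-H1-/- cells, against 3.7%. Between the genotypes it was 0 of 9 without treatment, against 4.74% of all genes, and 2 of 9 with treatment, against 13.7%. With 9 genes, shares of 2 in 9 lie close to these backgrounds, so by this rule the counts do not set the network apart from other genes. What follows is a description of which members moved. The drug effect differed between genotypes in 2 of 9, by the rule that the interval of the difference, propagated from the 4 Cuffdiff intervals with errors taken as independent, leaves out 0, against 8.29% of all genes.

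Myc, the activating member of the network, lies at chr15:61985341-61990361 (mm10, plus strand). It was at 61.7 FPKM (50.3 to 73.2) in untreated WT DCs, 49.5 (40.5 to 58.4) in treated WT DCs, 83.3 (68.0 to 98.5) in untreated GEF-H1-/- cells and 77.4 (63.4 to 91.5) in treated GEF-H1-/- cells. Both GEF-H1-/- levels were above both WT levels, and the intervals of the treated groups did not overlap, while those of the untreated groups did. The log2 ratio of GEF-H1-/- to WT was 0.64 (error 0.36, the width of the propagated 95% interval on either side) with treatment and 0.43 (interval 0.06 to 0.80) without. Treatment gave log2 ratios of -0.31 (-0.68 to 0.05) in WT and -0.10 (-0.47 to 0.26) in GEF-H1-/- cells, and the difference between these, 0.21 (-0.31 to 0.73), did not leave out 0. A dependence of the genotype contrast in Myc on the drug was therefore not shown.

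Max, the partner that MYC, MXD, MNT and MGA proteins share, was steady beside it. It was at 43.1 FPKM (34.2 to 52.2) in untreated WT, 41.8 (34.1 to 49.5) in treated WT, 47.7 (38.9 to 56.5) in untreated GEF-H1-/- and 45.9 (37.4 to 54.4) in treated GEF-H1-/- cells. All 4 intervals overlapped. Myc stood at 1.43 times Max in untreated WT, 1.18 times in treated WT, 1.75 times in untreated GEF-H1-/- and 1.69 times in treated GEF-H1-/- cells, on the FPKM scale.

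The E-box that these dimers bind was looked for in the promoters of the network genes themselves. Promoter windows, from 250 bases before to 50 bases after a gene's start, came from RefSeq on build GRCm38.p6 and covered 8 of the 9 genes in 10 windows, Myc being the gene without one. CACGTG, which reads the same on both strands, was in 4 of the 8 genes, Max, Mlx, Mnt and Mxd4, against 8.09% of all 27025 genes with a window, and in 7.15% of all 32851 windows. The matches are shown with 10 bases on either side, 5′ to 3′ on the gene's strand, with the E-box in capitals.
Max: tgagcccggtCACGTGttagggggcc
Mlx: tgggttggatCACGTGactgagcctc
Mnt: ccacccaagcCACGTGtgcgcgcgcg
Mxd4: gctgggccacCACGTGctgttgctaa
The Max match began 3 bases before the start (chr12:76962236-76962261, minus strand, flanks included), the Mlx match 40 bases before it (chr11:101087240-101087265, plus strand), the Mnt match 123 bases before it (chr11:74830791-74830816, plus strand) and the Mxd4 match 219 bases before it (chr5:34187914-34187939, minus strand). Genes with a match included the steady Max and Mlx as well as Mnt, and Mxd1 had none. The AP-1 motif TGANTCA, which also matches its own reverse complement, was in none of the 10 windows and in 7.81% of all windows. A match is a run of letters and was not measured as a bound site.

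Mxd1, an antagonist known for its appearance in differentiating myeloid cells, rose with treatment in WT DCs. It was at 22.8 FPKM (18.1 to 27.5) in untreated WT, 37.2 (29.5 to 44.7) in treated WT, 29.4 (23.3 to 35.2) in untreated GEF-H1-/- and 28.0 (22.3 to 33.7) in treated GEF-H1-/- cells. The intervals of the WT groups did not overlap, with a log2 ratio of 0.68 (0.28 to 1.08), a 1.63-fold change in FPKM. In GEF-H1-/- cells the ratio was -0.07 (-0.47 to 0.34), and the difference between the genotypes' drug effects, -0.75 (-1.32 to -0.18), left out 0. Untreated GEF-H1-/- cells lay between both WT levels, overlapping each.

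Mxd4 and Mxi1, antagonists of the same family, were lowest in treated GEF-H1-/- cells. Mxd4 was at 31.2 FPKM (23.0 to 37.6), 38.0 (27.1 to 47.1), 25.7 (18.7 to 31.3) and 22.8 (16.5 to 27.7) in untreated WT, treated WT, untreated GEF-H1-/- and treated GEF-H1-/- cells. Mxi1 was at 13.2 (9.92 to 16.6), 15.5 (12.5 to 18.5), 11.9 (9.36 to 14.4) and 9.76 (7.72 to 11.8) FPKM in the same order. The treated genotypes did not overlap for Mxi1, with a log2 ratio of GEF-H1-/- to WT of -0.62 (error 0.38), and overlapped slightly for Mxd4, with -0.72 (-1.22 to -0.21). Neither moved beyond its intervals with treatment, with log2 ratios in WT of 0.28 for Mxd4 and 0.22 for Mxi1 and in GEF-H1-/- cells of -0.17 and -0.26.

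Mxd3, the MXD gene tied to S phase in dividing progenitors, could not be resolved. It was at 12.3 FPKM (2.41 to 22.2), 7.66 (0.23 to 16.6), 11.2 (1.12 to 21.3) and 9.29 (0.31 to 18.5) in untreated WT, treated WT, untreated GEF-H1-/- and treated GEF-H1-/- cells. All these intervals overlapped, and each was at least 161% as wide as its FPKM. The median width was 45.3% in untreated WT DCs, over genes of accepted status above 1 FPKM there. Its entry in the table, chr13:55322055-55329730, was shared with Prelid1, which is on the opposite strand, overlaps Mxd3 by 105 bases in GENCODE M21 and was at 301 to 350 FPKM. The library kit was stranded, but whether the FPKM used strand is not given in the sources used here, so reads of both genes cannot be told apart.

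Mnt, the antagonist that most cells make throughout the cell cycle, was the other member that rose in WT DCs. It was at 8.74 FPKM (7.05 to 10.4) in untreated WT, 13.4 (10.7 to 16.1) in treated WT, 9.20 (7.43 to 10.97) in untreated GEF-H1-/- and 9.83 (7.93 to 11.7) in treated GEF-H1-/- cells. It rose with treatment in WT DCs, by a log2 ratio of 0.56 (0.20 to 0.93), with intervals that came close but did not overlap. The ratio in GEF-H1-/- cells was 0.09 (-0.27 to 0.44), and the difference between the drug effects, -0.48 (-0.99 to 0.04), did not leave out 0. Mxd1 and Mnt were the 2 of 9 that rose in WT DCs, against 9.19% of all genes with non-overlapping intervals in that direction.

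Mga, a very large MAX partner that joins E2F6 in a polycomb repressor complex, was the other member whose drug effect differed between genotypes. It was at 7.18 FPKM (5.75 to 8.61) in untreated WT, 5.73 (4.60 to 6.86) in treated WT, 6.80 (5.57 to 8.03) in untreated GEF-H1-/- and 8.24 (6.71 to 9.78) in treated GEF-H1-/- cells. Treated WT was the lowest and treated GEF-H1-/- the highest, with intervals that just overlapped. The log2 ratios were -0.28 (-0.63 to 0.07) in WT and 0.24 (-0.09 to 0.58) in GEF-H1-/- cells, neither beyond its interval, and their difference was 0.53 (0.05 to 1.01).

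Mlx, the MAX-like protein that pairs with the glucose-sensing Mondo proteins and with some MXD proteins, was as steady as Max. It was at 29.1 FPKM (22.9 to 35.4), 25.8 (20.6 to 31.1), 29.5 (23.3 to 35.7) and 29.2 (23.1 to 35.2) in untreated WT, treated WT, untreated GEF-H1-/- and treated GEF-H1-/- cells. All intervals overlapped. Its entry in the table was shared with Psmc3ip, on the opposite strand, which was at 3.37 to 6.18 FPKM. Over the 4 groups Max and Mlx each spanned 0.19 and 0.18 on the log2 scale, against 0.46 to 0.74 for the other members.

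**Figure D2:**
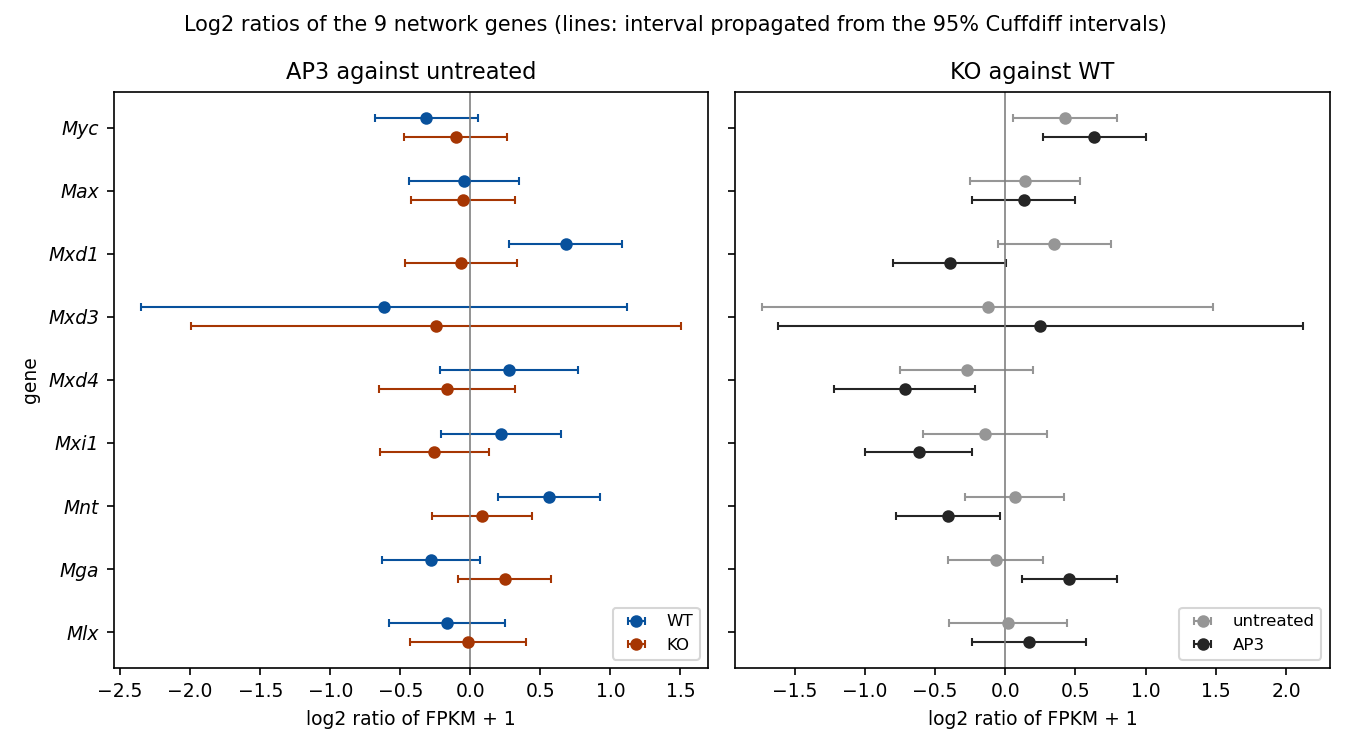
Log2 ratio of FPKM + 1 (x axis) for each network gene, for treated against untreated cells (left) and GEF-H1-/- (KO) against WT (right). Points are ratios of pooled values and lines the interval propagated from the 95% Cuffdiff intervals. Mxd1, at 0.68, and Mnt, at 0.56, lay to the right of 0 in WT DCs, and the lines of Mxd3 were the widest.

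The antagonists were next summed, a quantity chosen after the levels had been seen. Mxd1, Mxd3, Mxd4, Mxi1 and Mnt together came to 88.2 FPKM in untreated WT, 112 in treated WT, 87.3 in untreated GEF-H1-/- and 79.7 in treated GEF-H1-/- cells. Myc per summed FPKM was 0.70 (0.55 to 0.89), 0.44 (0.35 to 0.56), 0.95 (0.75 to 1.21) and 0.97 (0.76 to 1.24) in the same order. Treated WT DCs had the lowest ratio, and their interval did not overlap that of either GEF-H1-/- group, but overlapped slightly that of untreated WT DCs, so by non-overlap the change in WT DCs is not called. On the log2 scale, with propagated intervals, this ratio changed with treatment by -0.66 (-1.14 to -0.18) in WT and 0.03 (-0.46 to 0.52) in GEF-H1-/- cells, and the difference of 0.69 left out 0 only barely (0.00 to 1.37). Without the unresolved Mxd3, an alternative also chosen after seeing the data, this difference was 0.78 (0.15 to 1.42). The ratio's intervals in untreated WT (0.65 to 1.02) and treated WT DCs (0.38 to 0.59) then did not overlap, so that call depends on Mxd3. These are transcript levels, and no protein was measured.

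**Figure D3:**
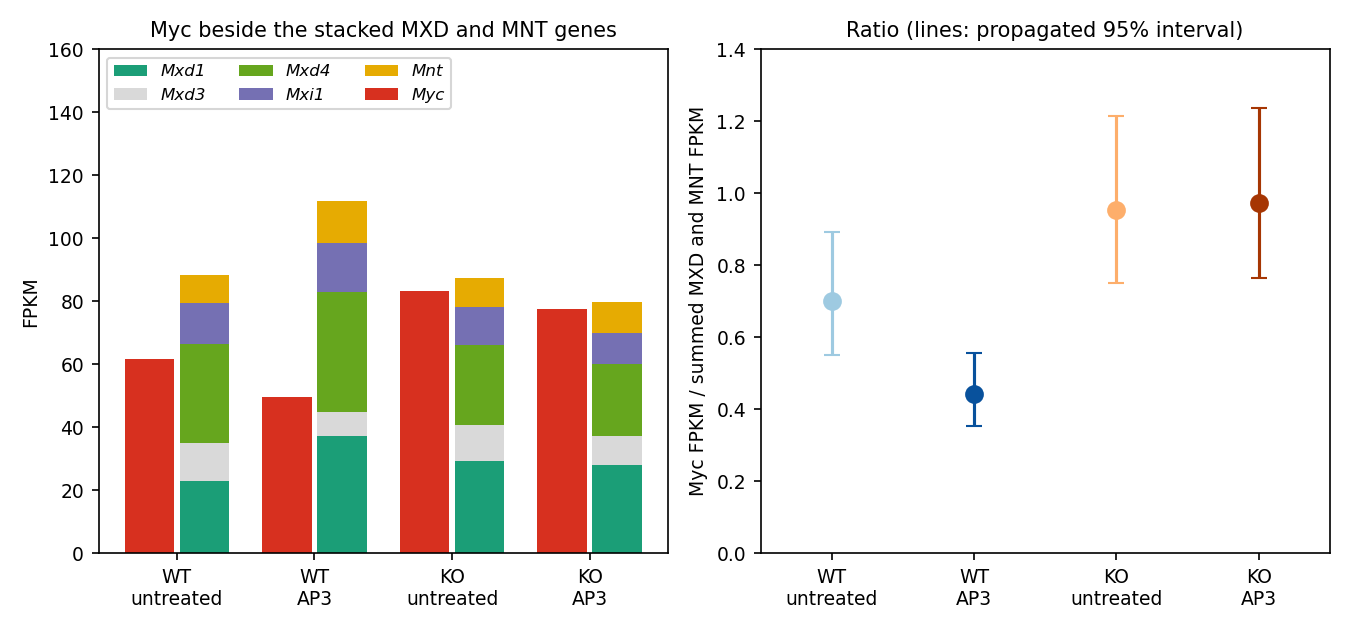
Left, FPKM (y axis) of Myc beside the stacked FPKM of Mxd1, Mxd3, Mxd4, Mxi1 and Mnt in WT and GEF-H1-/- (KO) DCs, untreated or given ansamitocin-P3 (AP3). Right, Myc FPKM divided by that sum, with lines for the interval propagated from the 95% Cuffdiff intervals. The ratio was 0.44 in treated WT and 0.97 in treated GEF-H1-/- cells.

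Genes whose pattern over the 4 groups was most like that of Myc were ranked over 8409 genes with a mean of at least 5 FPKM, by the root mean square difference of centred log2(FPKM + 1). They were Cst7 (0.01), E130218I03Rik (0.02), Npm3 (0.02), Ruvbl2 (0.02) and Nhp2l1 (0.03). Cst7, which encodes cystatin F, was at 66.3, 52.6, 88.8 and 81.8 FPKM in untreated WT, treated WT, untreated GEF-H1-/- and treated GEF-H1-/- cells. Of the other members, Mxd4 had the largest range, 0.72, and the genes most like it were Snx20 (0.02), Cdkn1b (0.02), Arc (0.03), Fbxl20 (0.03) and Degs2 (0.03). Cdkn1b, a cyclin-dependent kinase inhibitor, was at 15.8, 19.9, 12.9 and 11.2 FPKM. The likeness rests on 4 values per gene.

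Known targets of MYC were lower in treated WT DCs in several cases. This list and those that follow were chosen with earlier results of these data known. A share above the background is therefore not independent evidence. Of 31 MYC-induced target genes, 10 fell in treated WT DCs by non-overlapping intervals and 0 rose, against 7.58% of all genes that fell, and in GEF-H1-/- cells 0 differed, against 3.7%. With 31 genes that count of 0 is close to the background. Their median log2 ratio was -0.41 in WT and -0.08 in GEF-H1-/- cells, against 0.00 and -0.01 over all genes, which are also the values to set beside the medians of the other lists, and 27 of the 31 were below 0 in each genotype. The drug effect differed between genotypes for 7 of the 31, each with the higher ratio in GEF-H1-/- cells, against 3.52% of all genes in that direction. They were Tfrc, Cad and Dkc1 and, named after their values were seen, Srm, Polr1b, Rrp9 and Ppan.

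Cad, which starts pyrimidine synthesis, was at 18.1 FPKM (14.8 to 21.4) in untreated WT, 6.76 (5.47 to 8.05) in treated WT, 19.2 (15.7 to 22.7) in untreated GEF-H1-/- and 17.3 (14.1 to 20.4) in treated GEF-H1-/- cells. Tfrc, the transferrin receptor, was at 89.2 (67.0 to 108), 28.3 (22.2 to 34.2), 83.5 (62.8 to 101) and 63.7 (48.5 to 77.7) FPKM in the same order. Treated WT DCs stood below the other groups for each, and the log2 ratios in WT were -1.30 and -1.62. Dkc1, the pseudouridine synthase of ribosomal RNA and telomerase, had -1.17 in WT and -0.26 in GEF-H1-/- cells, and the repair enzyme gene Apex1, with wide intervals that overlapped, had -1.14 and -0.28. Srm, a spermidine synthase gene named after its values were seen, was the other of the 5 past -1 in WT DCs, at -1.01 (error 0.45).

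Between the genotypes, 3 of the 31 MYC-induced target genes were higher in untreated GEF-H1-/- cells, against 2.86% of all genes, and 16 were higher in treated GEF-H1-/- cells, against 7.02%. Their median log2 ratio of GEF-H1-/- to WT was 0.26 without and 0.74 with treatment, against -0.01 and -0.03 over all genes. The 3 without treatment, named after their values were seen, were Srm (0.82), the nucleolar Nolc1 (0.69) and the ribosome assembly gene Ppan (0.64). Ccnd2, cyclin D2, also named after its values were seen, was the 1 of 31 lower in GEF-H1-/- cells, with -0.88 without and -0.95 with treatment, against 1.88% and 6.73% of all genes. These comparisons share their groups with the drug effects and are not separate evidence. In the promoter windows, CACGTG was in 8 of the 26 MYC-induced target genes that had one, against 8.09% of all 27025 genes with a window. The list holds known MYC targets and MYC binds this E-box, so that share bears on the choice of list and not on these data.

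**Figure D4:**
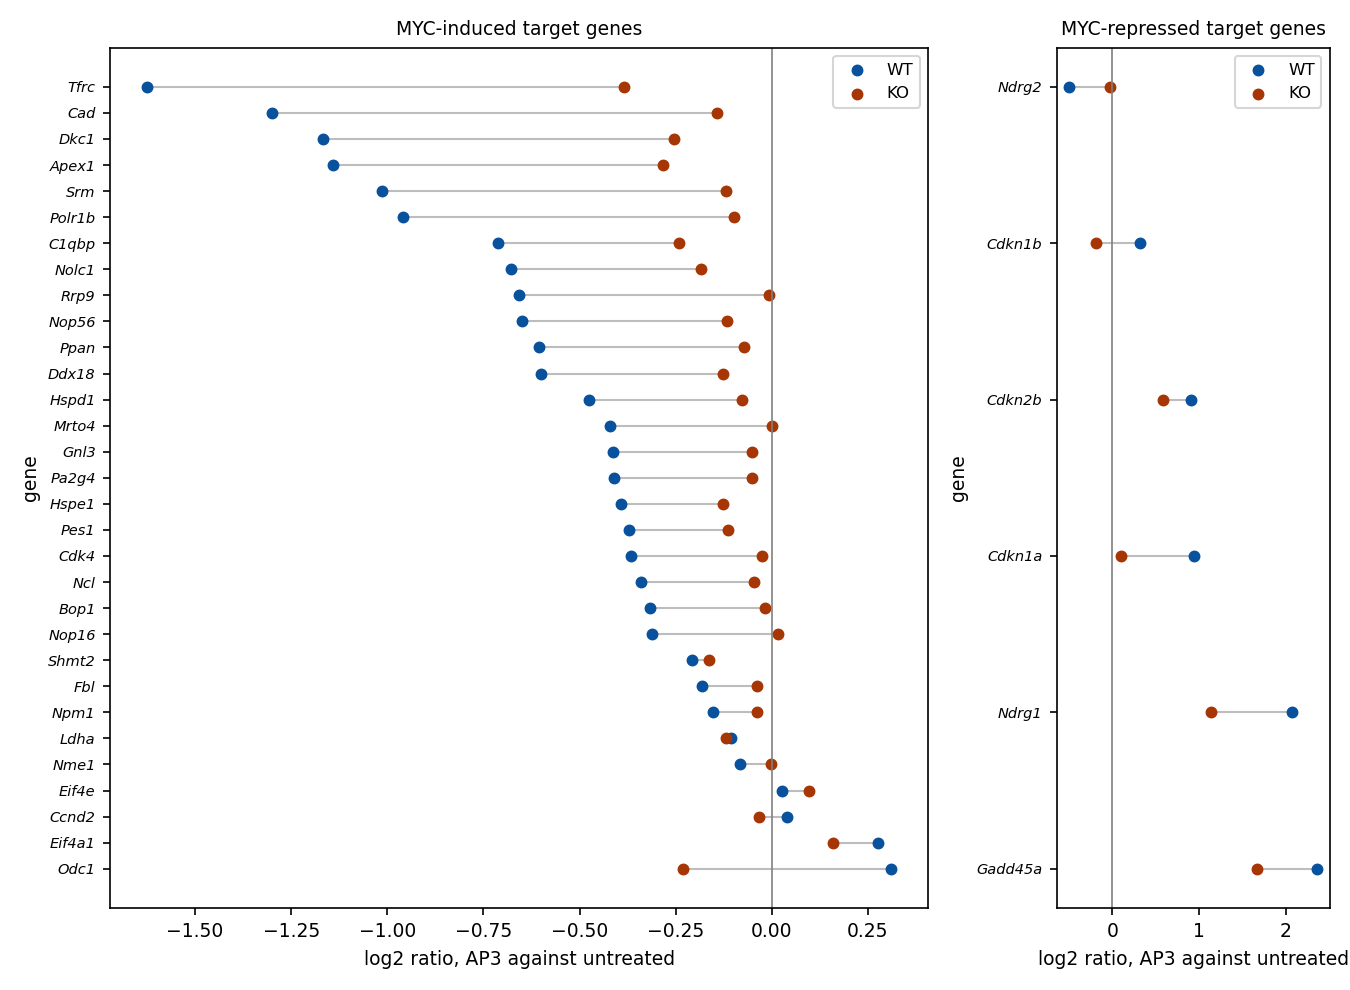
Log2 ratio of FPKM + 1, treated against untreated (x axis), for each MYC-induced (left, 31 genes) and MYC-repressed (right, 6 genes) target gene in WT and GEF-H1-/- (KO) DCs. Each pair of points joined by a line is 1 gene, and the x axes differ in range. The median was -0.41 in WT and -0.08 in GEF-H1-/- cells on the left, and 0.92 and 0.34 on the right.

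MYC-repressed target genes had medians above 0. Of the 6 of 7 that passed the filter, 4 rose in treated WT DCs, against 9.19% of all genes, and 2 in treated GEF-H1-/- cells, against 2.75%, with median log2 ratios of 0.92 and 0.34. Cdkn1a, a cyclin-dependent kinase inhibitor, was at 307 FPKM (248 to 367) in untreated WT, 589 (480 to 699) in treated WT, 328 (268 to 387) in untreated GEF-H1-/- and 352 (288 to 415) in treated GEF-H1-/- cells. Ndrg1, a stress-responsive gene, was at 16.1 (13.1 to 19.1), 71.0 (58.1 to 84.0), 15.1 (12.2 to 17.9) and 34.3 (28.0 to 40.6) FPKM in the same order. Cdkn1a thus rose in WT DCs only by these intervals, whereas Ndrg1 rose in both genotypes and more in WT, with differences between the drug effects of -0.84 and -0.94 that left out 0, the 2 of 6 that did so, against 8.29% of all genes. Gadd45a, a growth arrest gene, rose in both, with log2 ratios of 2.37 in WT and 1.67 in GEF-H1-/- cells, and Cdkn2b, another kinase inhibitor gene, rose in WT DCs, with 0.90 and 0.59. For these last 2 the difference did not leave out 0. The list did not move in 1 direction, with 5 of the 6 above 0 in WT DCs and 1 below. That 1 was Ndrg2, named after its values were seen. It had -0.49 in WT and -0.03 in GEF-H1-/- cells, with overlapping intervals. All these genes also have regulators other than MYC, and the part of the network in their changes was not tested.

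Among the 7 of 8 MLX-Mondo target genes that passed the filter, 3 fell in treated WT DCs, against 7.58% of all genes, and 0 differed in GEF-H1-/- cells, against 3.7%, with medians of -0.23 and 0.04. With 7 genes a count of 0 is close to that background. Fasn, fatty acid synthase, was at 18.5 FPKM (15.0 to 21.9) in untreated WT, 7.88 (6.43 to 9.32) in treated WT, 22.2 (18.1 to 26.3) in untreated GEF-H1-/- and 23.0 (18.9 to 27.2) in treated GEF-H1-/- cells. Acaca, which makes the malonyl-CoA that Fasn uses, had log2 ratios of -0.82 in WT and 0.04 in GEF-H1-/- cells. The drug effect differed for 2 of the 7, against 8.29% of all genes, Fasn, by 1.19 (error 0.50), and Acaca, by 0.86 (error 0.53). It was not shown to differ for Acly, ATP-citrate lyase, a lipid synthesis gene of the same list named after its values were seen, which had -0.23 in WT and -0.11 in GEF-H1-/- cells and a difference of 0.12 (error 0.69). Klf10 fell in WT DCs, with -0.65 against -0.17, and Arrdc4, an arrestin-domain gene that responds to glucose, had 0.66 in WT and 0.09 in GEF-H1-/- cells with overlapping intervals, so the list did not move in 1 direction.

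Other E-box factors include lysosomal and clock regulators, and 11 of 14 passed the filter. In treated WT DCs 3 of the 11 rose and 0 fell, against 9.19% and 7.58% of all genes, with a median log2 ratio of 0.25. They were Bhlhe40, a repressor of E-box genes, from 174 FPKM (138 to 209) to 298 (245 to 352), Tfe3, from 27.4 (22.2 to 32.7) to 43.6 (34.4 to 53.0), and Mitf, from 7.59 (5.85 to 9.36) to 11.6 (9.45 to 13.8). In GEF-H1-/- cells the log2 ratios of these genes were 0.20, 0.19 and 0.48, and the drug effect differed between genotypes for Bhlhe40 only, by -0.57 (error 0.54), which is 1 of 11 against 8.29% of all genes and close to that background. Tfeb, a close relative of Tfe3, had -0.33 in WT and -0.15 in GEF-H1-/- cells, with overlapping intervals. The Myc paralogue Mycl, listed under its older symbol Mycl1 and named after its values were seen, was the 1 gene of the 11 that fell in GEF-H1-/- cells, against 0.956% of all genes, from 5.83 FPKM (4.50 to 7.15) to 2.65 (1.99 to 3.32). In WT DCs it was at 6.16 FPKM (4.78 to 7.53) without and 4.22 (3.17 to 5.26) with treatment, and the difference between the drug effects, -0.45 (error 0.55), did not leave out 0.

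Genes for the proteins through which the network acts were taken next. None of 14 SIN3-HDAC corepressor subunits differed by non-overlapping intervals in any of the 4 comparisons, against 16.8% and 3.7% of all genes for treatment in WT and GEF-H1-/- cells and 4.74% and 13.7% between untreated and treated genotypes. With 14 genes a count of 0 is close to the backgrounds of 3.7% and 4.74%. The medians for treatment were 0.08 in WT and -0.05 in GEF-H1-/- cells, and among those with a mean of at least 5 FPKM the largest WT log2 ratios in size were 0.53 for Arid4b, 0.32 for Sin3b, 0.24 for Arid4a and 0.22 for Brms1. Sin3b, the scaffold that MXD proteins contact, was at 106 FPKM (81.3 to 130) in untreated and 133 (98.9 to 172) in treated WT DCs. Of 15 MYC coactivators and MIZ1, 1 fell in treated WT DCs, against 7.58% of all genes. It was Kat2a, the histone acetyltransferase GCN5, at 16.8 FPKM (13.5 to 20.1) in untreated WT, 7.53 (5.80 to 9.25) in treated WT, 22.8 (17.5 to 28.1) in untreated GEF-H1-/- and 17.8 (13.8 to 21.9) in treated GEF-H1-/- cells. Kat2a and the AAA+ ATPase genes Ruvbl1 and Ruvbl2 were the 3 of 15 that were higher in treated GEF-H1-/- than in treated WT DCs, against 7.02% of all genes, by log2 ratios of 1.14, 0.63 and 0.67, and Cdk9, the kinase that releases paused polymerase, had 0.40 with treatment in WT DCs with overlapping intervals.

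Of 13 genes for MYC protein turnover, 1, Pim1, rose in treated WT DCs, against 9.19% of all genes. This kinase gene was at 129 FPKM (99.9 to 158) in untreated WT, 248 (187 to 299) in treated WT, 140 (108 to 172) in untreated GEF-H1-/- and 162 (124 to 199) in treated GEF-H1-/- cells. Pim3 (0.45), Gsk3a (0.47) and Gsk3b (0.34), which encode kinases that act on MYC among other substrates, had log2 ratios above 0 in WT DCs with overlapping intervals. The drug effect differed between genotypes for 2 of the 13, against 8.29% of all genes, Pim1, by -0.73 (error 0.65), and the ubiquitin ligase gene Huwe1, named after its values were seen, by 0.63 (error 0.62).

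Of 12 genes of the MGA and E2F6 complex, 1, E2f6, fell in treated WT DCs, against 7.58% of all genes, from 12.1 FPKM (9.66 to 14.6) to 7.94 (6.26 to 9.63), and stood at 13.3 (10.7 to 15.9) and 11.6 (9.31 to 13.9) in untreated and treated GEF-H1-/- cells. The list had a median log2 ratio of -0.22 in WT and -0.17 in GEF-H1-/- cells. Cbx3, a heterochromatin protein gene, had -0.68 in WT, the methyltransferase gene Ehmt1 -0.55 and Rybp 0.46, each with overlapping intervals. None of the 12 had a drug effect that differed between genotypes by its propagated interval, against 8.29% of all genes, and with 12 genes that is close to the background.

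Proliferation genes, which many MYC-driven cells express highly, were all 14 below 0 in treated WT DCs, with a median log2 ratio of -0.33, and 9 of 14 were below 0 in GEF-H1-/- cells, with a median of -0.07. By non-overlapping intervals 3 of 14 fell in WT DCs, against 7.58% of all genes, all subunits of the replicative helicase. They were Mcm2 (-0.75), Mcm3 (-0.65) and Mcm5 (-0.60), and Rrm2, a ribonucleotide reductase subunit, had -0.66 with overlapping intervals. In GEF-H1-/- cells the same 4 had -0.35, -0.29, -0.32 and -0.16, and none of the 14 drug effects differed between genotypes by the propagated interval, against 8.29% of all genes. All 14 differences were nevertheless above 0, with a median of 0.29, against -0.01 over all genes.

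Macrophage and DC markers, singled out here after their values were seen, were looked at last. Of 6 macrophage markers, 2 fell in treated WT DCs, against 7.58% of all genes, and 1, Mertk, in treated GEF-H1-/- cells, against 0.956%. Mertk, a receptor for dying cells, was at 5.46 FPKM (4.32 to 6.59) in untreated WT, 0.78 (0.54 to 1.01) in treated WT, 4.56 (3.58 to 5.56) in untreated GEF-H1-/- and 2.53 (1.93 to 3.13) in treated GEF-H1-/- cells. Emr1, which encodes F4/80, fell in WT DCs from 35.9 FPKM (29.2 to 42.5) to 20.4 (16.7 to 24.2). Ccr7, the chemokine receptor of maturing DCs, was the 1 of 10 DC markers that rose in GEF-H1-/- cells, against 2.75% of all genes, and with Irf4 (0.77) made the 2 of 10 that rose in WT DCs, against 9.19%. It went in WT DCs from 258 FPKM (202 to 312) to 602 (465 to 730) and without GEF-H1 from 234 (184 to 284) to 405 (316 to 490). Flt3, which marks DC precursors among other cells, was the 1 of 10 DC markers that fell in WT DCs, against 7.58% of all genes, from 2.10 to 1.07 FPKM, with a log2 ratio of -0.58, and Batf3 had -0.55 with overlapping intervals. With 10 genes these counts lie close to the backgrounds. The part that maturation or cell makeup had in the values of the target genes was not tested.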

How the data were processed

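RNA of 8 BMDC libraries, 2 per group, was prepared with a stranded mRNA kit. The authors' deposited values were FPKM per gene and group, normalized for gene length and library size in Cuffdiff 1.05 on mm10, with the lower and upper bounds of a 95% interval. Both libraries of a group were pooled, and how far the bounds include the spread between libraries is not given in the sources used here. The WT columns were named as control and were assigned to WT because the other columns named GEF-H1. Those other columns ended in the letters c and s, which were read as control (untreated) and stimulated (treated). Every drug effect in GEF-H1-/- cells rests on this reading, which Arhgef2 cannot check. There were 0 further columns of values.

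Log2 ratios of FPKM + 1 were computed in Python 3.11.15 with numpy 2.4.6 and pandas 2.3.3 (figures, matplotlib 3.10.9), a scale that understates changes of low genes. The 107 genes whose status was not OK were left out, as were genes under 1 FPKM in every group. Calls were a log2 ratio past 1 in size or non-overlapping intervals, with no p-value. Propagated intervals took the 4 errors as independent. They were run on simulated data drawn with the same independence and with widths taken from the Cuffdiff intervals, so neither assumption was checked. Genes low in untreated WT DCs, among them Mxd3, Mxi1, Mnt and Mga, were not simulated. Lists (9 of the pathway, 7 of markers) and members were chosen with earlier results of these data known. Of the listed genes, Ly6g was not matched, and 3 listed genes were matched by older symbols. Named genes were all members, Arhgef2, up to 4 per pathway list with the largest WT log2 ratio in size and a mean of at least 5 FPKM, and the 5 genes closest in pattern to Myc and to the other member with the largest range. Single markers and Srm, Ppan, Polr1b, Rrp9, Nolc1, Ccnd2, Ndrg2, Huwe1, Mycl and Acly were outside this rule and were named after their values were seen. Alternatives were pseudocounts of 0.1 and 5 FPKM, no filter, a filter of 5 FPKM, rescaling by median ratios and a 1.5-fold threshold.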

Additional observations from a re-analysis of the deposited data

Results flagged for a closer look

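Drug effects that differed between the genotypes are given here as the log2 ratio in GEF-H1-/- DCs minus that in WT DCs, where the interval propagated from the Cuffdiff intervals leaves out 0. These differences rest on pooled values and have no replicate check, and 8.29% of all genes meet the same rule. Of 36 genes named from the 9 pathway lists, 10 met it. They were named for large WT log2 ratios, which enter the difference, so 8.29% is not a like background for them. Genes named after their values were seen have the same limit. In the network itself the drug effects that differed were those of Mxd1, at -0.75 (error 0.57), and Mga, at 0.53 (error 0.48). Myc per summed MXD and MNT FPKM differed by 0.69 (error 0.69), with a lower bound just above 0.

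Among MYC-induced target genes the differences were 1.24 for Tfrc, 1.16 for Cad, 0.91 for Dkc1, 0.89 for Srm, 0.86 for Polr1b, 0.65 for Rrp9 and 0.54 for Ppan. Among MYC-repressed target genes they were -0.94 for Ndrg1 and -0.84 for Cdkn1a. Of the MLX-Mondo target genes, Fasn had 1.19 and Acaca 0.86, while Acly had 0.12 (error 0.69), which does not leave out 0. Kat2a had 0.72, Huwe1 0.63, Bhlhe40 -0.57 and Pim1 -0.73. The macrophage marker Mertk had 1.21. Fbxl20 had -0.48 (error 0.48), but it was chosen because its values follow those of Mxd4, so this restates the choice, and Mxd4 itself did not leave out 0.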

How the results depend on the processing

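Rescaling each group by the median ratio changed the call of none of the 45 ratios of network genes, and the other pseudocounts changed none of the 9 calls of the difference between drug effects. Filters, and pseudocounts where the call rests on overlap of FPKM intervals, cannot change these calls. No network gene passed a log2 ratio of 1 with the other pseudocounts or after rescaling. Counts past the fold threshold moved with the pseudocount. For the drug effect in WT DCs, 563 genes became 956 with 0.1 FPKM and 318 with 5 FPKM, and in GEF-H1-/- DCs 123 became 212 and 77. Between untreated genotypes 214 became 372 and 101, and between treated genotypes 463 became 801 and 206. At 1.5-fold the 4 counts were 2017, 454, 600 and 1687, and 2 network genes passed in WT DCs (Mxd1 and Mxd3) and 3 between treated genotypes (Myc, Mxd4 and Mxi1). With a filter of 5 FPKM, non-overlapping intervals between untreated genotypes went from 540 to 349 genes, since fewer genes were counted.

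Non-overlap is a strict rule. Calling a ratio where its propagated interval leaves out 0 was an alternative chosen after seeing the data. It gave 3431, 1022, 1145 and 2966 of the 11397 genes in the 4 comparisons. Of the 9 network genes, 2 were called with treatment in WT DCs and 0 in GEF-H1-/- cells. Between genotypes it was 1 of 9 without treatment (Myc, at 0.43) and 5 of 9 with treatment (Myc, Mxd4, Mxi1, Mnt and Mga). The share of 5 in 9 is larger than that over all genes, and this difference was not tested. Without Mxd3, Myc per summed MXD and MNT FPKM was 0.81, 0.48, 1.09 and 1.10 in untreated WT, treated WT, untreated GEF-H1-/- and treated GEF-H1-/- DCs. The fall with treatment in WT DCs was then called by non-overlap, which it was not with Mxd3 in the sum.

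No paired analysis was possible because both libraries of a group were pooled into 1 value, and leaving out each library was not run for the same reason. Other limits are the depth, which was not analysed, intervals whose cover of the spread between cultures is unknown, low levels of Mga and Mnt, the shared entry of Mxd3, 1 time point and the absence of protein values.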
